A study of Mus musculus with 6 samples.

Results

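The regions described here are 1111 stretches of the mouse genome that lie away from genes and carried a peak of histone H3 acetylated at lysine 27 (H3K27ac) in both epithelium libraries and in no mesothelium library of the embryonic lung. Peaks of 4 deposited H3K27ac lists that overlapped or touched were merged into 132165 regions on chromosomes 1 to 19, X and Y. A region was epithelium-only when it held a peak of each epithelium library and none of either mesothelium library, which was the case for 4384 regions, or 3.32% of all, and mesothelium-only in the opposite case (3445 regions, 2.61%). Intergenic distal regions, of which there were 40363, lay beyond 2 kb from both ends of every annotated gene and had their midpoint outside every protein-coding gene body. The 1111 regions that met both conditions were 25.3% of the epithelium-only regions and 2.75% of the intergenic distal regions. Intergenic is used here with respect to coding genes, since 202 of the 1111 regions (18.2%) had their midpoint inside a noncoding gene. The regions were chosen by the presence of peaks in the 4 lists, so what is said of their presence, levels and neighbours is a description without a test.

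Epithelial cells had been sorted from E16.5 mouse lungs, with E for days of embryonic development, as positive for podoplanin (PDPN) and EPCAM and negative for CD45, CD31 and DAPI, a dye of dead cells, from 100k cells for epithelium 1 and 200k cells for epithelium 2 per the sample titles. Mesothelial cells, from the sheet that covers the lung, passed the same gates except that they lacked EPCAM, and 25k cells gave mesothelium 1 and 100k cells gave mesothelium 2. Both groups share their genotype: the parents carried floxed Myrf (Myrf Fl/Fl), no Cre is named in the labels, and the cells are called wildtype in the series text. Lungs were pooled before the sort, no label says that the libraries of a cell type came from separate pools, and 2 IgG libraries from epithelial cells were not analysed here.

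There were 47873 peaks over 44.4 Mb in epithelium 1 and 46633 over 41.4 Mb in epithelium 2, and 39010 over 35.7 Mb in mesothelium 1 and 41532 over 39.8 Mb in mesothelium 2. These lists hold no read counts, so the depth behind a peak is unknown, and a missing peak does not show that acetylation was missing. In bulk samples a mark carried by fewer cells and a weaker mark in every cell cannot be told apart. Peaks at gene ends, within 1 kb of either end, bore on the labels. Of 35 lung epithelial transcription factor genes, 18 had gene-end peaks in both epithelium libraries and 4 in both mesothelium libraries, beside 17.4% and 20.7% of all 21887 coding genes. Of 23 mesothelial genes, 2 had gene-end peaks in both epithelium libraries and 4 in both mesothelium libraries. The share with mesothelium peaks was thus not above the 20.7% of all coding genes, and this count lends the mesothelium label no support. By gene-end peaks of a single cell type, 3 of the 23 were mesothelium-only and 0 epithelium-only, beside 3.00% and 2.01% of all coding genes. Pdpn had such peaks in both epithelium libraries and in neither mesothelium library, although both cell types were sorted as PDPN-positive. Epcam had one in epithelium 2, in no other library, and neither Ptprc, which encodes CD45, nor Pecam1, which encodes CD31, had one in any library. Of 15 endothelial genes 1 had gene-end peaks in both epithelium libraries alone and a different one in both mesothelium libraries alone, and of 15 blood cell genes none had them in both libraries of either cell type. Myrf had no gene-end peak in any of the 4 lists and was the nearest coding gene of none of the 1111 regions.

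H3K27ac marks active promoters and active enhancers, the sequences that raise transcription of a gene from a distance. Enhancers lie within genes and between them, often far from the gene they act on, and they differ between cell types more than promoters do, so the nearest gene is only a first guess at the gene an enhancer serves. In the fetal lung the epithelium grows as branching tubes whose tips respond to fibroblast growth factors from the mesenchyme, and at late gestation its cells begin to turn into alveolar type 1 and type 2 cells. NKX2-1 and FOXA2 are the transcription factors best known for setting and keeping the identity of that epithelium.

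No sequence of the regions themselves was used here, and promoters of their neighbours are shown in place of them. Of the 802 coding genes nearest to a region, 22 had a RefSeq promoter, 250 bases before to 50 bases after a start site, that was overlapped by peaks of both epithelium libraries and of neither mesothelium library. Among all 32851 RefSeq promoters 1.19% had that pattern, against 3.41% of the 763 promoters of the nearest genes. The genes of the lists used here among the 22 were Foxa2, Cldn18, Irx3, Etv5, Lpcat1 and Nkx2-1. Promoters of the endoderm regulators Foxa2 and Nkx2-1 and of the claudin gene Cldn18 are printed because they had that pattern and their genes have distal regions described below. That of Nkx2-1 lies at the 5′ end of the gene. Those of Foxa2 and Cldn18 belong to start sites inside the genes, whose 5′ ends are at chr2:148046969 and chr9:99717267. At its gene ends Foxa2 also had a peak in mesothelium 1, and Cldn18 had one in epithelium 1 alone. The printed sequences are RefSeq sequences of GRCm38.p6, the assembly that mm10 names, read 5′ to 3′ along the gene, with motif matches in capitals.
Foxa2, chr2:148045415-148045714, minus strand: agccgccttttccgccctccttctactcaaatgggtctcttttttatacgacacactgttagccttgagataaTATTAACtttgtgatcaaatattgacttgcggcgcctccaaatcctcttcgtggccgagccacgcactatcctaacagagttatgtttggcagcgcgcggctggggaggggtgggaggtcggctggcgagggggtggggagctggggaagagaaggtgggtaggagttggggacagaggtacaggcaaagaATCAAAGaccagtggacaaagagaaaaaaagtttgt
Nkx2-1, chr12:56536859-56537158, minus strand: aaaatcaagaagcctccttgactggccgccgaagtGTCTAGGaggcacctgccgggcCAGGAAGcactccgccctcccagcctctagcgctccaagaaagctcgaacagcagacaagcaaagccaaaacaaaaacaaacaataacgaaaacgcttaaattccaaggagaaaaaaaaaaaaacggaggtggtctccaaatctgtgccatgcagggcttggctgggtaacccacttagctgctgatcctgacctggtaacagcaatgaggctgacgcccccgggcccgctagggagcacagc
Cldn18, chr9:99710014-99710313, minus strand: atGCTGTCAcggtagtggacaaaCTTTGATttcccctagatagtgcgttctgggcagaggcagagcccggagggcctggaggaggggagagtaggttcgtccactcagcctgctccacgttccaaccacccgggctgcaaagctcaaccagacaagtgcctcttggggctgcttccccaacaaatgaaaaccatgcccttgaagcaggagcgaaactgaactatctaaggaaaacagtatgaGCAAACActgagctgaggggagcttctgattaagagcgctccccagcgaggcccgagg

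The 16 motifs were searched as fixed letters on both strands. For forkhead factors these were TGTTTAC (FOXA) and TGTTTGC (FOX), for NKX2-1 they were CACTTGA, for AP-1 they were TGANTCA, for TEAD they were GGAATGT and for GRHL they were ACCNGTT. The ETS letters were CAGGAAG, the SOX letters were ACAATGG, the KLF letters were CACACCC, the GATA letters were AGATAAG and the MEIS letters were TGACAGC. The CEBP letters were TTGCNNAA, the HNF1 letters were GTTAATN, the SMAD letters were GTCTAGN and the TCF/LEF letters were CTTTGAT, and the palindrome of NFI was the last. The capitals in Foxa2 are an HNF1 match on the opposite strand and a TCF/LEF match on the opposite strand. Those in Nkx2-1 are a SMAD and an ETS match, and those in Cldn18 are a MEIS match on the opposite strand, a TCF/LEF match and a FOX match on the opposite strand. No 2 of these matches overlap. Such letters are common: the HNF1 letters were in 7.08% of all RefSeq promoters, TCF/LEF in 3.73%, SMAD in 8.33%, ETS in 13.3%, MEIS in 5.55% and FOX in 5.07%. The peaks over the printed Foxa2 promoter were 2.88 kb long in epithelium 1 and 35.7 kb in epithelium 2. Those over the printed Nkx2-1 promoter were 5.69 and 24.6 kb, and those over the printed Cldn18 promoter 6.97 and 3.89 kb. A match is a string of letters in a promoter and says nothing of a bound factor.

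Set beside regions found in 1 library of each cell type, epithelium-only regions were most in excess away from genes. The spread of peak calling was read from crossed regions, those with a peak in exactly 1 epithelium and 1 mesothelium library, which can be paired in 4 ways. Among intergenic distal regions 1111 were epithelium-only and 573 mesothelium-only (1.42% of the 40363), and the crossed patterns held 192, 232, 245 and 281 regions, on average 237.5 ± 36.7 (SD, n = 4 patterns). Epithelium-only regions were thus 4.68 times and mesothelium-only regions 2.41 times as many as the crossed mean. Intergenic distal regions with a peak numbered 13549 in epithelium 1 and 12717 in epithelium 2, against 9325 in mesothelium 1 and 9580 in mesothelium 2. Longer lists meet more often, and the crossed mean makes no allowance for that. Whether 4.68 against 2.41 goes beyond the difference in list length was not tested. For distal regions inside coding genes the counts were 2358 and 1961, or 2.21 and 1.84 times the crossed mean of 1065.25. Within 2 kb of gene ends they were 915 and 911, or 1.97 and 1.96 times a crossed mean of 464.75. Intergenic distal regions were 25.3% of epithelium-only, 16.6% of mesothelium-only, 13.4% of crossed regions and 6.59% of the regions found in all 4 libraries.

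The excess over mesothelium was absent once weak peaks were left out, by a floor that cuts the libraries unequally. The −log10 q is the peak caller's error rate adjusted over its tests, on a scale where higher is stronger. When peaks below a −log10 q of 2 were left out there were 230 epithelium-only and 236 mesothelium-only intergenic distal regions, while the ratio of the epithelium-only count to the crossed mean was 4.16. Over all peaks the median −log10 q was 1.56 in both epithelium libraries, but 1.72 in mesothelium 1 and 2.05 in mesothelium 2. The floor thus removes a larger part of the epithelium lists, and it cannot show that the excess rests on weak peaks. With equal numbers of peaks per library the counts were 909 and 586, so an excess remained. That setting equalises all peaks of a library, and not its intergenic distal ones. Most intergenic distal regions, 91.1%, were found in 1 library alone. Since a single library then decides, 12343 regions would have been epithelium-only without epithelium 2 and 11510 without epithelium 1.

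**Figure D1:**
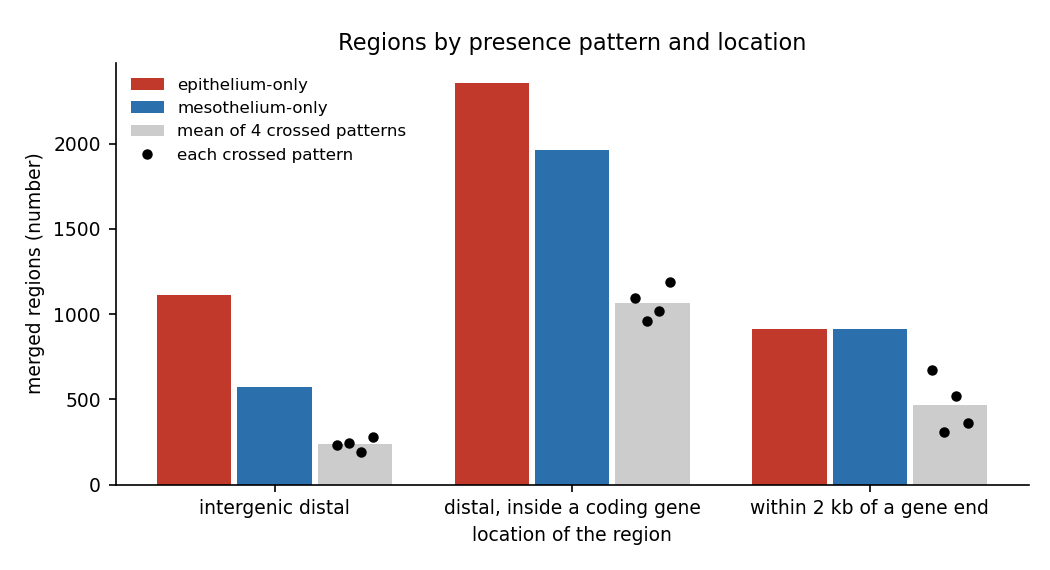
Bars give the number of merged regions (y axis) that were epithelium-only or mesothelium-only, and grey bars the mean of the 4 crossed patterns with each pattern as a point, for 3 locations (x axis). Away from genes the 1111 epithelium-only regions stand beside 573 mesothelium-only regions and a crossed mean of 237.5, whereas within 2 kb of gene ends 915 stand beside 911.

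The regions were mostly narrow. Their median width after merging was 1540 bp, with quartiles of 1007.5 and 2195 bp and a range of 344 to 8762 bp, and 16 were at least 5 kb wide. A region was covered by peaks over a median of 984 bp in epithelium 1 and 946 bp in epithelium 2, in nearly all cases by a single peak. The fold enrichment and the −log10 q of a peak are the authors' own values over the peak caller's background. The median fold of the regions' peaks was 3.598 in epithelium 1 and 3.615 in epithelium 2, and the median −log10 q was 1.71 and 1.72. Over all intergenic distal regions with a peak of the library the median −log10 q was 1.47 in both, and over all peaks of the lists it was 1.56 in both. The median width of all peaks was 580 bp in epithelium 1 and 571 bp in epithelium 2. The lowest −log10 q among the regions was 1.09 in epithelium 1 and 1.08 in epithelium 2. A −log10 q of at least 2 in both libraries was reached by 159 regions (14.3%), of at least 3 by 11 and of at least 4 by 0. At the distance limit, the members nearest to a gene end lay 2002, 2012 and 2013 bp from it, and the nearest epithelium-only regions kept out lay 1990, 1989 and 1987 bp away.

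The extent and strength of a region differed between the epithelium libraries, although each region was chosen for having a peak in both. The part covered in both was a median of 36.8% of a region's width, with quartiles of 22.8% and 55.0%. Across the 1111 regions Spearman's rank correlation between epithelium 1 and epithelium 2 was 0.268 for covered length, 0.152 for −log10 q and 0.127 for fold. These values come from 1 pair of libraries, and regions are not independent replicates. In a region at Lpcat1 and in 2 of the 3 at Bmp4, chosen after their values were seen, the peaks of the libraries lay mostly side by side, with 2.32%, 2.87% and 1.95% of the width covered in both.

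The regions with the longest coverage in both libraries included neighbours of Nkx2-1, Foxa2 and Fgfr2. The first by that measure lay at chr2:117875506-117881567, 230 kb from Thbs1, which encodes the matrix protein thrombospondin, and was covered over 5.85 kb in epithelium 1 and 6.02 kb in epithelium 2. Next came regions near Brinp2 (5.89 and 4.95 kb), Samd9l (4.99 and 4.72 kb) and Adcyap1, a neuropeptide gene (4.59 and 8.76 kb). The region at chr12:56509479-56515004, 16.9 kb from Nkx2-1, was covered over 4.52 and 5.53 kb, with 81.7% of its width covered in both. Regions near the chemokine receptor gene Cxcr4 and the gap junction gene Gja1 followed, with 5.27 and 4.40 kb and 4.45 and 4.18 kb. The other 5 of the 12 lay near Foxa2, Sdc1, Fgfr2, Lpcat1 and Smc2. The Sdc1 region, 16.1 kb from a gene for a cell-surface proteoglycan of epithelia, was covered over 4.08 and 3.83 kb.

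By −log10 q in the weaker library the first region was chr12:56399885-56403149, nearest to Mbip and in the interval between Mbip and Nkx2-1. Its −log10 q was 3.94 in epithelium 1 and 4.41 in epithelium 2, and its fold was 5.25 and 5.45. The next was near Nrp1, which encodes a co-receptor for semaphorins and vascular growth factor (3.56 and 5.06). Regions near Arhgef26, Gpc5, Foxo3, Tpd52, Gal3st2b, Myc and Ugcg were also among the first 10, with a −log10 q between 3.09 and 4.20. None of the first 10 was among the 12 regions with the longest coverage.

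The regions lay at every distance from genes. Their median distance to the nearest coding gene was 57.9 kb, and 163 (14.7%) were within 10 kb, 340 (30.6%) from 10 to 50 kb, 206 (18.5%) from 50 to 100 kb, 356 (32.0%) from 100 to 500 kb and 46 (4.14%) farther. The medians of mesothelium-only and crossed intergenic distal regions, 55.8 and 57.8 kb, were close to this value. Regions found in all 4 libraries were nearer, with a median of 35.1 kb, and regions found in 1 library alone farther, with medians of 96.9 to 107.8 kb. Where the strand of the nearest gene was known, 446 of 846 regions (52.7%) lay on its 5′ side, against 51.9% of mesothelium-only and 51.7% of crossed regions.

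**Figure D2:**
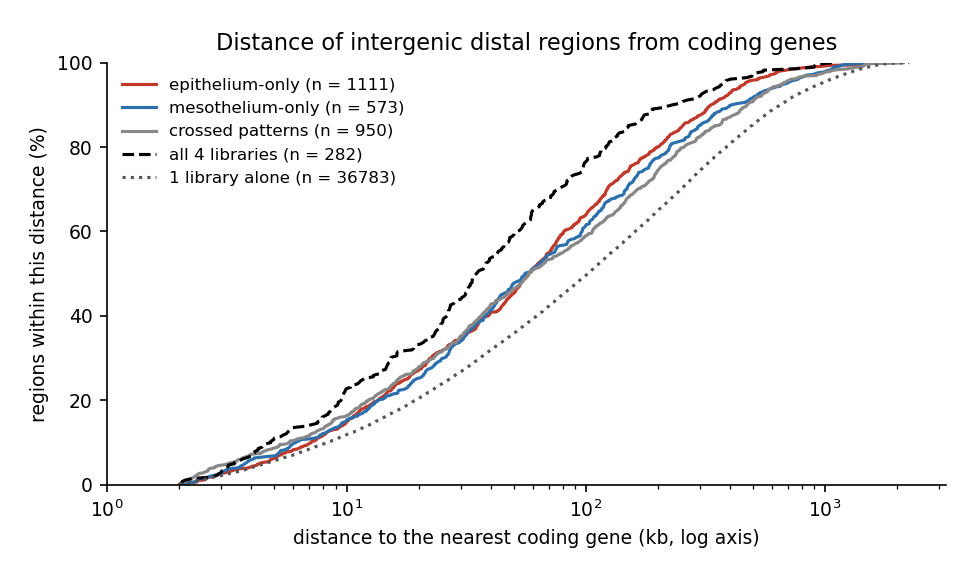
Curves give the share of intergenic distal regions (y axis, %) within a distance of the nearest coding gene (x axis, kb, log axis), for epithelium-only, mesothelium-only and crossed regions, regions of all 4 libraries and regions of 1 library alone. The epithelium-only curve has its median at 57.9 kb, near the mesothelium-only curve at 55.8 kb, between regions of all 4 libraries at 35.1 kb and regions of 1 library alone at 96.9 kb or more.

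The nearest coding genes numbered 802, or 3.66% of all coding genes, of which 633 had 1 region, 97 had 2 and 72 (0.329% of coding genes) had 3 or more. Those 72 genes held 284 regions, 25.6% of the 1111, while genes with 3 or more of their kind held 17.3% of the 573 mesothelium-only and 13.8% of the 950 crossed regions. These sets hold fewer regions, and such a share tends to rise with the size of the set. Epithelium-only and mesothelium-only regions shared 75 nearest genes, 9.35% of the 802 and 16.6% of the 451 genes (2.06% of coding genes) nearest to a mesothelium-only region. At their own ends, 49 of the 802 genes (6.11%) and 9 of the 72 had peaks in both epithelium libraries and neither mesothelium library, beside 2.01% of all coding genes. The opposite pattern was found at 16 of the 802 (2.00%) and at 0 of the 72, beside 3.00% of all coding genes. Nearest genes of crossed regions had epithelium-only gene-end peaks in 3.54% of cases. The peaks at gene ends came from the same lists as the regions, so these shares are no independent readout.

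Transcription factors of the lung epithelium were the listed group with the most regions. Of the 35 genes of that list, 15 (42.9%) were nearest to at least 1 region, and together they had 32 epithelium-only regions (2.88% of 1111). The list had 9 mesothelium-only regions at 3 genes (1.57% of 573) and 13 crossed regions at 8 genes (1.37% of 950). With a −log10 q of at least 2 the list had 10 epithelium-only and 2 mesothelium-only regions, and with equal numbers of peaks 29 and 9. The list makes up 0.160% of coding genes, but its genes also attract regions of the other patterns, which the crossed count shows. Of its 9 mesothelium-only regions 7 were at a single gene, Nfib, a nuclear factor I gene that is active in lung mesenchyme too.

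**Figure D3:**
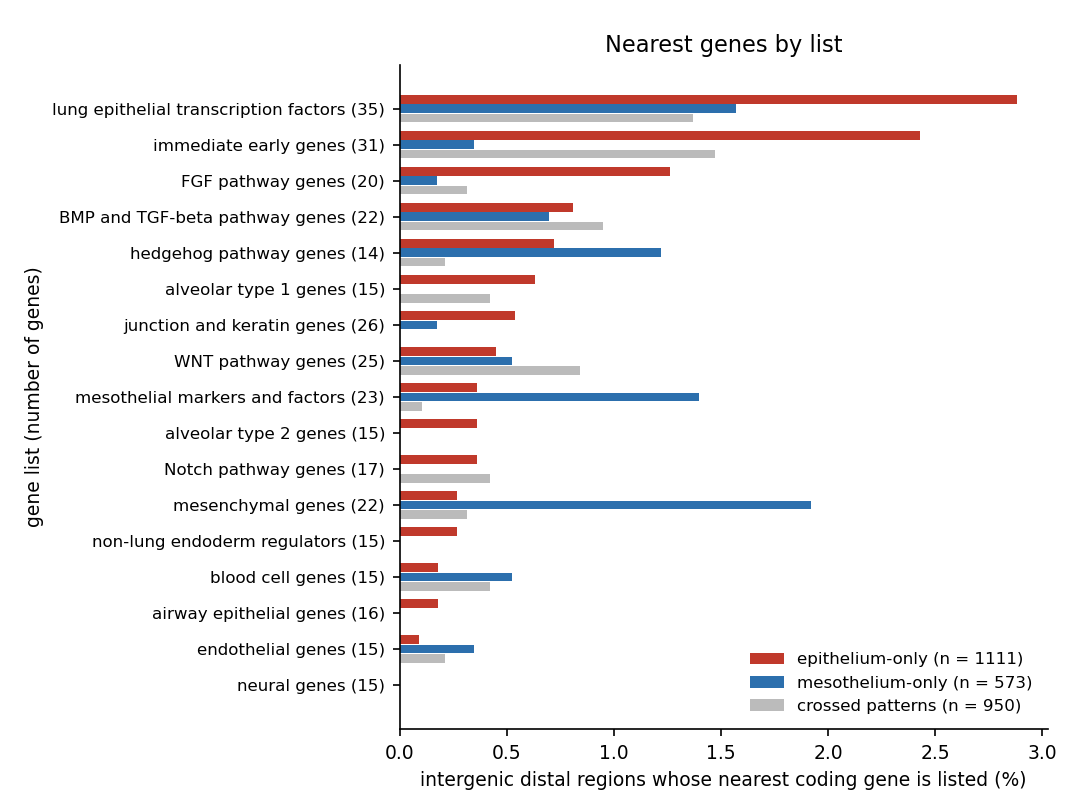
For each gene list (y axis, number of genes in brackets), bars give the share of intergenic distal regions whose nearest coding gene is on the list (x axis, %), from top to bottom epithelium-only, mesothelium-only and crossed. Lung epithelial transcription factors reach 2.88%, 1.57% and 1.37%, FGF pathway genes 1.26%, 0.175% and 0.316%, and mesenchymal genes 0.270%, 1.92% and 0.316%.

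Foxa2, a forkhead pioneer factor of the endoderm, had 7 regions, the most of any gene on the lists drawn up with the design, with 0 mesothelium-only and 2 crossed regions. Intergenic distal sequence nearest to Foxa2 was covered over 18.1 kb in epithelium 1 and 25.1 kb in epithelium 2, against 1.66 kb in mesothelium 1 and 1.64 kb in mesothelium 2. The libraries of the 2 cell types did not overlap, and the mesothelium values were small throughout. The 7 regions, which by rule held no mesothelium peak, gave 12.1 and 16.4 kb of the epithelium coverage. The rule thus favours this contrast, and the same limit holds for coverage at every gene, interval or chain with a region below. Of the 7 regions, 6 lay on the 3′ side of the gene, between 34.2 and 91.8 kb from it, and 1 lay on the 5′ side at 159 kb. The nearest, chr2:148001840-148008664, was covered over 4.53 and 3.90 kb, but with only 23.6% of its width in common. The shorter region chr2:147960950-147962284, 80.6 kb away, had the highest −log10 q in its weaker library among them, 2.95 in epithelium 1 and 3.29 in epithelium 2. The 6 regions on the 3′ side lay inside the long noncoding RNA gene 9030622O22Rik. Foxa2 had 3 regions at a −log10 q of at least 2, and 7 without either mesothelium library.

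Nkx2-1, the homeodomain factor that specifies the lung, had the single wide region given above. Intergenic distal sequence nearest to it was covered over 11.2 and 10.9 kb in epithelium 1 and 2, against 0.466 and 0 kb in mesothelium 1 and 2. In the 186 kb between Mbip and Nkx2-1, where the region with the highest −log10 q also lay, peaks covered 25.7 and 26.7 kb in the epithelium libraries, against 6.49 kb in mesothelium 1 and 0 kb in mesothelium 2. On the other side, the 74.5 kb between Nkx2-1 and Nkx2-9 held no region, with 1.01 and 0.418 kb under epithelium peaks and 0.381 and 0 kb under mesothelium peaks.

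Iroquois genes, homeobox genes that lie in a pair of clusters of 3, had regions at all 6 members of the family. Together they had 12 epithelium-only regions, 0 mesothelium-only regions and 1 crossed region. Irx2 had 4 regions, Irx1 3, Irx3 2, and Irx4, Irx5 and Irx6 had 1 each. Around Irx2 peaks covered 9.32 and 7.31 kb of intergenic distal sequence in epithelium, against 1.72 and 0.677 kb in mesothelium, and around Irx1 they covered 12.8 and 6.14 kb, against 1.04 and 1.51 kb. In the 556 kb between Irx3 and Irx5 they covered 7.79 and 9.36 kb in epithelium, against 0.784 and 0 kb in mesothelium. Each of these 3 comparisons had every epithelium value above every mesothelium value. The Iroquois regions were weak in 1 library or the other: with a −log10 q of at least 2 the family had 0 regions, and with equal numbers of peaks it had 12.

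The other epithelial factors had 1 to 3 regions each. Gata6, a zinc-finger factor shared by lung epithelium and mesothelium, had 3 regions 94.3 to 114 kb away and also 1 mesothelium-only region. Its intergenic distal sequence was covered over 14.3 and 10.7 kb in epithelium, against 5.14 and 5.08 kb in mesothelium. Id2, an inhibitor of basic helix-loop-helix factors expressed at the growing lung tips, had 3 regions and 9.91 and 13.5 kb in epithelium, against 2.04 and 2.93 kb in mesothelium. Mycn, a proliferation factor of the same tips, had 2 regions and 13.4 and 13.95 kb, against 3.41 and 1.48 kb. Grhl2, the grainyhead factor that drives junction genes, had 1 region of 0.382 and 0.955 kb, 75.0 kb away. Sox2 and Trp63, factors of the airways and of basal cells, had 1 region each, 162 and 98.2 kb away. Etv5 and Hopx had 1 each within 15 kb. Nfib, with 1 epithelium-only and 7 mesothelium-only regions, was the reverse, with 8.59 and 10.9 kb in epithelium, against 17.2 and 16.7 kb in mesothelium.

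Genes of fibroblast growth factor (FGF) signalling had 14 regions at 6 of 20 genes (1.26% of 1111), against 1 mesothelium-only region (0.175% of 573) and 3 crossed regions (0.316% of 950). The 6 genes are 30.0% of the list, beside 3.66% of all coding genes with a region. By role, 4 regions were nearest to the receptor gene Fgfr2 and the rest to genes that FGF signals induce and that feed back on it. These were Spry2 with 3, Spred1 with 2 and Spry1 with 1 among the Sprouty-related inhibitors, Dusp6 with 3, which encodes a phosphatase of the ERK kinases, and Etv5 with 1, an ETS factor. Around Dusp6 peaks covered 6.71 and 8.64 kb of intergenic distal sequence in epithelium, against 1.14 and 0 kb in mesothelium. Around Spred1 they covered 5.72 and 5.58 kb, against 0 and 0.324 kb, and around Spry2 17.4 and 20.9 kb, against 4.44 and 4.93 kb. No FGF ligand was among the 6 genes. At a −log10 q of at least 2 the list had 3 epithelium-only and 1 mesothelium-only regions.

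The 527 kb between Wdr11 and Fgfr2 held 9 regions, 5 of them nearer to Wdr11, and 0 mesothelium-only and 0 crossed regions. Fgfr2 encodes the receptor through which the lung epithelium receives FGF from the mesenchyme, and Wdr11 encodes a WD-repeat protein of vesicle traffic. Peaks covered 26.6 kb of this interval in epithelium 1 and 35.2 kb in epithelium 2, against 2.62 kb in mesothelium 1 and 5.16 kb in mesothelium 2. Among the 4 regions nearest to Fgfr2 the widest was chr7:129981610-129986918, 176 kb from the gene, covered over 3.81 and 4.55 kb. Among the 5 nearest to Wdr11, the region chr7:129750810-129751834 reached a −log10 q of 4.28 in epithelium 2 but only 1.98 in epithelium 1. At its ends Fgfr2 had peaks in both epithelium libraries and in neither mesothelium library, whereas Wdr11 had gene-end peaks in all 4.

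Shh, which encodes the hedgehog ligand that the lung epithelium sends to the mesenchyme, had 6 of the 8 regions of the hedgehog list. They lay 7.77, 28.3, 53.9, 94.4, 211 and 357 kb from the gene, all on the side of Rnf32, and 5 of them lay inside the noncoding gene 9530036O11Rik. The region 28.3 kb away had the highest −log10 q in its weaker library, with a −log10 q of 3.54 in epithelium 1 and 2.93 in epithelium 2. Intergenic distal sequence nearest to Shh was covered over 11.9 and 9.99 kb in epithelium, against 0.874 and 0.364 kb in mesothelium. No mesothelium-only or crossed region was nearest to Shh. The other 2 regions of the list were at Cdon, a co-receptor gene, and Hhip, a gene for a hedgehog-binding inhibitor, and the list had 7 mesothelium-only regions at 4 genes and 2 crossed regions.

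**Figure D4:**
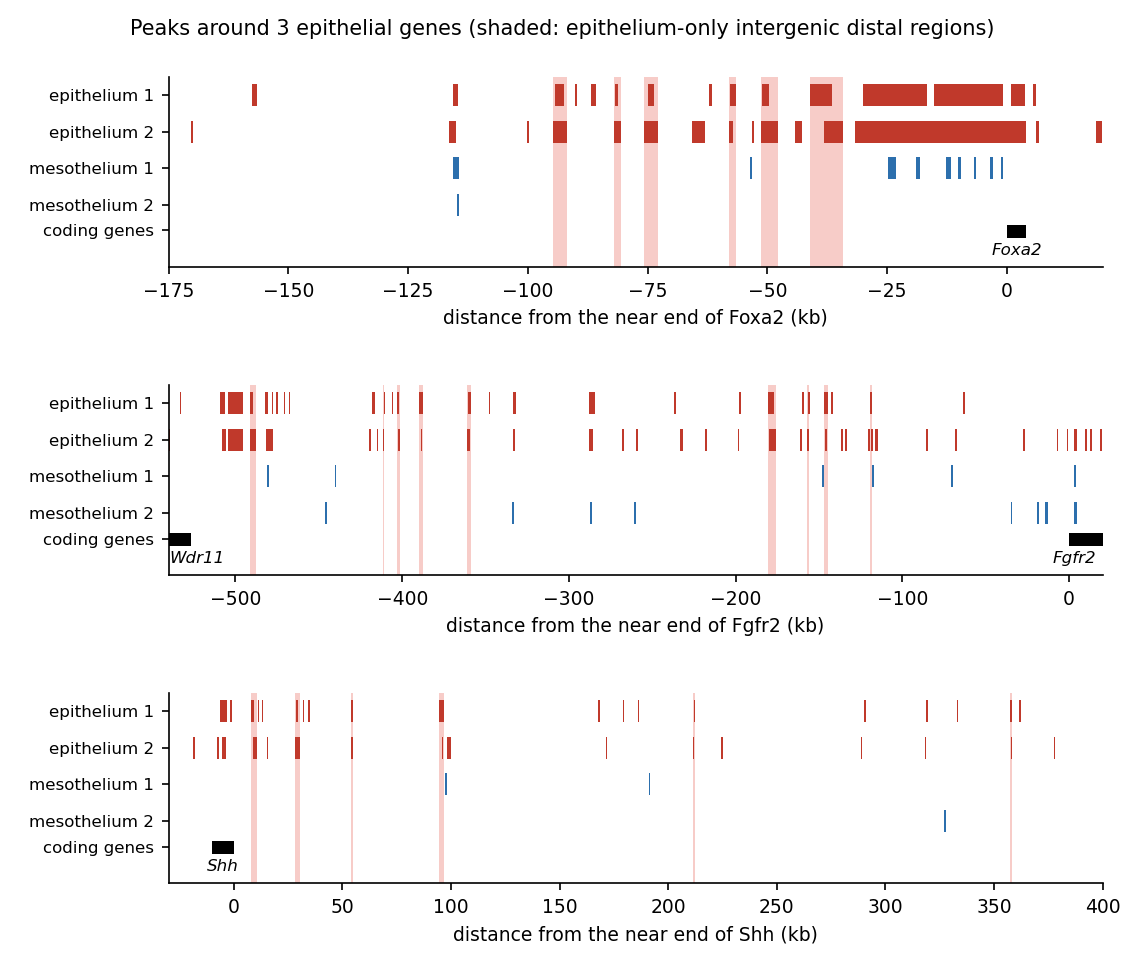
Peaks of each library (coloured bars, rows) along the sequence next to Foxa2, Fgfr2 and Shh (x axis, distance from the near end of the gene in kb), with coding genes in black and epithelium-only intergenic distal regions shaded. The shaded regions are 6 of the 7 at Foxa2, the 9 between Wdr11 and Fgfr2 and the 6 at Shh, and few mesothelium peaks lie between them.

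Among the other signalling lists, genes of BMP and TGF-beta signalling had 9 regions (0.810%), 4 mesothelium-only (0.698%) and 9 crossed (0.947%). These 9 were at the ligand genes Bmp4 (3) and Tgfb2 (2), the receptor gene Tgfbr2 (1) and the target gene Id2 (3). Around Bmp4, a growth factor of the distal lung tips, peaks covered 13.0 and 11.5 kb in epithelium, against 4.40 and 2.97 kb in mesothelium. Genes of WNT signalling had 5 regions, 3 mesothelium-only and 8 crossed, among them 1 each at the receptor gene Fzd8, the ligand gene Wnt11, Lgr5 and Bambi. Genes of Notch signalling had 4 regions, 0 mesothelium-only and 4 crossed, of which 3 were at the target gene Hes1 and 1 at the transcription factor gene Rbpj.

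Genes of differentiated alveolar cells and of epithelial junctions had small numbers of regions, mostly close to the gene. The alveolar type 2 list had 4 epithelium-only, 0 mesothelium-only and 0 crossed regions. They were at the surfactant protein genes Sftpb (25.5 kb away, covered over 2.24 and 1.79 kb) and Sftpd (11.98 kb away, 1.77 and 1.26 kb), the surfactant lipid enzyme gene Lpcat1 (27.8 kb away, 3.40 and 3.95 kb) and Etv5. Around Lpcat1 peaks covered 12.1 and 10.8 kb of intergenic distal sequence in epithelium, against 0.892 and 0 kb in mesothelium. The alveolar type 1 list had 7 epithelium-only regions at 6 genes, 0 mesothelium-only and 4 crossed. Of these Cldn18, a claudin of alveolar junctions, had 2, at chr9:99724251-99726919 and chr9:99727974-99729808, 6.98 and 10.7 kb from the gene. Around Cldn18 peaks covered 7.92 and 5.20 kb in epithelium, against 0 and 0.531 kb in mesothelium. Pdpn had 1 region 3.65 kb away, and Emp2 and Cav2 had 1 each.

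The junction and keratin list had 6 epithelium-only regions, 1 mesothelium-only and 0 crossed. Besides Cldn18 they were at Cdh1, the E-cadherin gene (20.6 kb away, 1.18 and 1.93 kb), Krt8, Dsp and Epcam. The Epcam region, 25.8 kb away, was short, with 0.624 and 0.410 kb under peaks, and reached a −log10 q of 2.18 in epithelium 1 and 2.39 in epithelium 2. Airway genes had 2 regions, those of Sox2 and Trp63, and 0 mesothelium-only and 0 crossed. A list of endoderm regulators of organs other than the lung had 3, all at Hnf4g, a nuclear receptor gene known from the gut and kidney. Around Hnf4g peaks covered 12.1 and 15.8 kb of intergenic distal sequence in epithelium, against 0.696 and 1.72 kb in mesothelium, although Hnf4g had no gene-end peak in any library.

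Lists of other cell types had 0 to 4 regions each. Mesenchymal genes had 3 epithelium-only regions (0.270%) at 3 of 22 genes and 11 mesothelium-only regions (1.92%), with 3 crossed. Mesothelial markers and factors had 4 (0.360%) and 8 (1.40%), with 1 crossed, and the 4 were at Gata6 and Krt8, which are also on epithelial lists. Endothelial genes had 1 region, at Kdr, and 2 mesothelium-only regions, blood cell genes 2, at Ptprc and Runx1, and 3 mesothelium-only regions, and neural genes 0 and 0. The 3 mesothelium-only regions of the blood list were all nearest to Ptprc, whose epithelium-only region lay 407 kb away. The shares of listed genes with a region were 13.6% for the mesenchymal, 8.70% for the mesothelial, 6.67% for the endothelial and 13.3% for the blood cell list, beside 3.66% of all coding genes. Of the 4 sort markers, Pdpn, Epcam and Ptprc had 1 region each and Pecam1 had 0.

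Several of the genes with the most regions were on no list drawn up with the design. Zfp608, a zinc-finger gene, had 9 regions, 0 mesothelium-only and 5 crossed, with 35.9 and 38.03 kb of intergenic distal sequence under peaks in epithelium, against 11.8 and 8.86 kb in mesothelium. Btbd3, Klf6 and Klf12 had 7, 7 and 6, and Lyplal1, Jun, Csnk1g3 and Sox4 had 6 each. Klf12, a zinc-finger repressor gene, had 0 mesothelium-only and 0 crossed regions, with 31.5 and 24.9 kb in epithelium, against 9.40 and 6.18 kb in mesothelium. The interval between Klf12 and Klf5, a gene of the epithelial factor list, held 5 epithelium-only and 4 crossed regions. Sox4, an HMG-box factor, was covered in both cell types, over 36.9 and 33.2 kb in epithelium, against 19.001 and 14.3 kb in mesothelium. Lyplal1 had 3 mesothelium-only regions beside its 6, and 27.4 and 30.8 kb against 22.0 and 16.2 kb. Adcyap1, Thbs1, Wdr11, Ppp1r3a and Tmsb4x had 5 each. For Tmsb4x, which encodes an actin-binding peptide, peaks covered 11.4 and 10.8 kb, against 2.43 and 2.04 kb. At all 15 of these genes both epithelium values were above both mesothelium values, as the choice of genes by epithelium-only regions favours.

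Read by the interval between neighbouring coding genes, which avoids the choice of 1 nearest gene, 746 of 19697 intervals held the 1111 regions and 46 held 4 or more. The median length of an interval with a region was 197 kb, against 17.3 kb for all. The interval from Csnk1g3 to Zfp608 held 10 regions, with 31.2 and 32.7 kb under epithelium peaks, against 9.59 and 3.05 kb under mesothelium peaks. After Wdr11 to Fgfr2 with 9 came Rasgrp1 to Thbs1, Slc10a2 to Efnb2 and Akr1e1 to Klf6 with 8 each, and Jun to Fggy with 7. The interval from Slc10a2 to Efnb2 is long, 3.51 Mb, so that its density of 2.28 regions per Mb was below the 17.1 per Mb between Wdr11 and Fgfr2. Between Akr1e1 and Klf6 there were also 9 crossed and 3 shared regions, and 38.7 and 41.0 kb in epithelium stood beside 19.5 and 17.6 kb in mesothelium. Intervals of 1 Mb or more held 18.1% of the epithelium-only regions, 21.1% of the mesothelium-only and 25.7% of the crossed regions, with 32.0% of the intergenic bases.

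**Figure D5:**
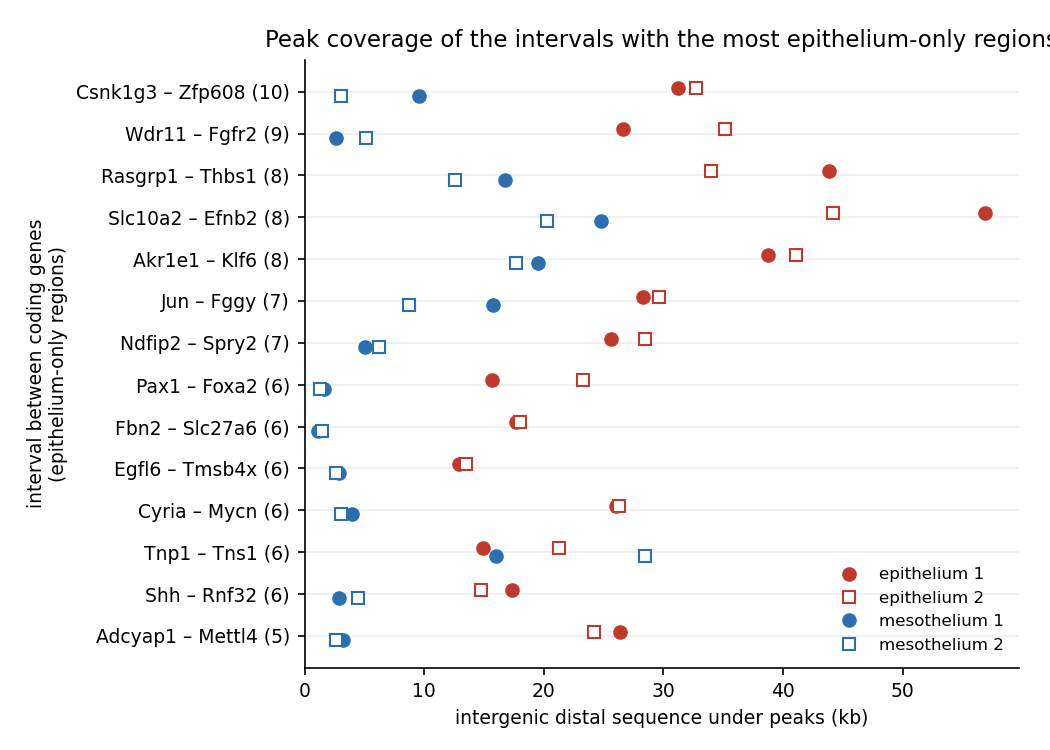
For the 14 intervals between coding genes with the most epithelium-only regions (y axis, number of regions in brackets), points give the intergenic distal sequence under peaks (x axis, kb) in each library. Epithelium points lie right of both mesothelium points in every interval except Tnp1 to Tns1, where 14.9 and 21.3 kb in epithelium stand beside 16.04 and 28.4 kb in mesothelium.

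Some regions stood in short chains. When regions with short gaps between them, the longest of 12.3 kb, were joined, 141 regions (12.7%) fell into 65 chains of 2 or 3. The share was 12.4% for mesothelium-only regions, 11.7% for the 282 regions of all 4 libraries and 7.16% for the 950 crossed regions pooled, and lay between 1.04% and 5.17% for the 4 crossed patterns, which hold fewer regions each. The chain with the longest covered length lay next to Foxa2 at chr2:147984837-148008664, with 3 regions in 23.8 kb, and a second chain of 3 at chr2:147948217-147969956 followed farther from the gene. Over the first chain peaks covered 7.30 and 10.2 kb in epithelium, against 0.515 and 0 kb in mesothelium. Chains near Adcyap1 (2 regions), between Pde7a and Dnajc5b (3), near Gja1 (2) and near Rapgef5 (3) completed the 6 longest. Their mesothelium coverage was 0 kb in both libraries except between Pde7a and Dnajc5b, where it was 1.58 and 0.428 kb beside 12.4 and 10.4 kb in epithelium. By rule the regions of a chain hold no mesothelium peak. Mesothelium coverage over any chain can therefore come only from the short gaps, and low values were set in advance.

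Noncoding genes held the midpoints of 202 regions in 169 genes, of which 160 were annotated as long noncoding RNAs. The share of regions inside noncoding genes was 18.2% for epithelium-only, 13.8% for mesothelium-only, 16.53% for crossed regions and 18.8% for regions of all 4 libraries. The genes with the most were 9030622O22Rik beside Foxa2 with 6, and 9530036O11Rik beside Shh, 2610307P16Rik beside Sox4 and Junos beside Jun with 5 each. Gm15270 next to Ccn2 and Gm13481 next to Acvr2a had 4 each. With the whole region kept outside every annotated gene, noncoding ones included, 909 regions were left, and Foxa2, Shh and Jun were each left with 1.

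Families of transcription factors that share a symbol differed in their shares of the regions. The 16 families counted held 65 of the epithelium-only regions (5.85%), 22 of the mesothelium-only (3.84%) and 28 of the crossed (2.95%). They held 3.90% of the regions of all 4 libraries and make up 1.04% of coding genes. Besides the Iroquois genes, Klf genes had 15 (1.35%), 1 (0.175%) and 10 (1.05%), and Sox genes 10 (0.900%), 1 (0.175%) and 5 (0.526%). Among regions of all 4 libraries the Klf share was 1.06%, near the epithelium-only share, and the Sox share was higher, 1.42%. Fox genes had 9 (0.810%), 3 (0.524%) and 3 (0.316%), and nuclear receptor genes named Nr 8 (0.720%), 0 and 3 (0.316%). Of the 8 nuclear receptor regions, 3 were at Nr3c1, the gene of the glucocorticoid receptor, which the late fetal lung needs to mature, with 4.27 and 6.16 kb in epithelium, against 0.745 and 1.03 kb in mesothelium. Nfi genes had 1 and 8 with 2 crossed, and Meis genes 0 and 4 with 1 crossed, so these 2 families had more mesothelium-only regions. Hox and Pou genes had 0 in both cell types.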

How the data were processed

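H3K27ac CUT&RUN, in which an antibody guides a nuclease to cut out marked chromatin, had been done on 2 epithelium and 2 mesothelium samples, grouped here by sample title. The build mm10 is from the submitters' processing notes, which list as tools MACS2 (version 2.2.9.1), Bowtie2 (2.5.3), cutadapt (4.8), bedtools (2.31.1) and others, without roles. The threshold and control of the peak caller are not given. The authors deposited 1 broad peak list per library. The deposited score, a whole number the peak caller gives for display, was not used. The deposited ratio is a fold enrichment over the caller's background, and the deposited −log10 p and −log10 q ranked and filtered peaks. No counts exist in these lists, so no count model or test was run.

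Peaks that overlap or touch were merged, and genes (49943, 21887 of them coding) were placed by a RefSeq table of GRCm38.p6. Strand came from its promoter table where a gene was in it. Planned motif searches in the regions and their sequences needed a genome and were replaced by RefSeq promoters. All 345 listed symbols matched. The steps were checked on simulated intervals. Python (3.11.15) was used with scipy (1.17.1), numpy (2.4.6), matplotlib (3.10.9) and pandas (2.3.3).

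Named were the 12 regions with the longest coverage and the 10 with the highest −log10 q in their weaker library (1 of them is not reported here), the 15 genes with the most regions, up to 4 genes per list, and the 6 first intervals, chains and noncoding genes. All genes of the transcription factor, FGF and Iroquois groups with a region, and Nr3c1, the 14 intervals drawn and the other nearby genes given, were added after values were seen. Regions and lists were chosen with earlier results of these data known. The list of immediate early genes and the alternatives of autosomes alone and of peaks of at least 500 bp were chosen after seeing the data. Other alternatives covered the peak threshold, numbers of peaks, merging, overlap, distance from genes, gene bodies and leaving out each library.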

Additional observations from a re-analysis of the deposited data

How the results depend on the processing

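Read depth is unknown, and weak peaks set most values. No paired analysis was possible because the results are counts and medians of regions and come from no test. With a −log10 q floor of 2 there were 230 epithelium-only and 236 mesothelium-only regions, beside 1111 and 573 without it. A floor of 4 gave 2 of each, and beyond 10 kb from gene ends there were 694 and 374. The floors act on peaks before merging, so the regions found with them are not all among the original ones. Of the 1111 regions, 159 reached 2 in both epithelium libraries and 0 reached 4. With peaks of at least 500 bp there were 352 mesothelium-only regions. The ratio to the crossed mean, 4.68, was 2.0 at the floor of 4 and 6.54 with peaks of at least 500 bp. It has no value when a library is left out. The intergenic distal share, 25.3%, was 20.0% at the floor of 4, 21.1% and 15.8% beyond 5 and 10 kb, and 20.7% with whole regions outside all genes. The median width, 1540 bp, was 2047.5 and 2455 bp at floors of 2 and 4, 1597 bp with equal numbers of peaks and with an overlap of 200 bp, 1476 bp with peaks up to 500 bp apart merged and 1871 bp with peaks of at least 500 bp. The median gene distance, 57.9 kb, was 72.9 kb at the floor of 4 and 68.3 and 89.6 kb beyond 5 and 10 kb. Leaving out 1 library, which loosens the rule for its cell type, gave 1272 to 12343 epithelium-only and 673 to 8522 mesothelium-only regions, shares of 21.5% to 35.2%, widths of 491 to 1638 bp and distances of 56.1 to 94.7 kb. The highest counts were without epithelium replicate 2 and without mesothelium replicate 1. Of 59 named genes with a region, 32 had none at the floor of 2 and 7 had none with equal numbers of peaks.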

Other observations

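Genes of the immediate early response, which are switched on within minutes by growth factors and other stimuli, had many of the regions. A list of 31 such genes was drawn up after the nearest genes had been seen, so its counts are descriptive only. It had 27 epithelium-only regions (2.43%), 2 mesothelium-only (0.349%) and 14 crossed regions (1.47%), at 7 of the 31 genes. They were Klf6 (7), Jun (6), Thbs1 (5), Ccn2 (4), Myc (3), Nr4a3 (1) and Btg2 (1). Around Ccn2, a matrix gene, peaks covered 8.10 and 3.00 kb of intergenic distal sequence in epithelium, against 0.521 and 0.331 kb in mesothelium. The regions themselves, chosen for having no mesothelium peak, made up 7.68 and 3.00 kb of that epithelium coverage, so the rule sets nearly all of this contrast. Around Jun, an AP-1 subunit gene, peaks covered 11.2 and 18.02 kb, against 8.09 and 4.53 kb, with 4.39 and 8.15 kb of the epithelium coverage in the regions. At gene ends 8 of the 31 genes had peaks in both epithelium libraries and 9 in both mesothelium libraries. At a −log10 q of at least 2 the list had 3 and 2 regions, and with equal numbers of peaks 17 and 3.

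The regions were spread over all autosomes, at 0.754 per Mb of intergenic sequence, from 0.400 on chromosome 19 to 1.07 on chromosome 13. Chromosome X had 0.168 per Mb, and mesothelium-only and crossed regions were also sparse there, at 0.0400 and 0.136 per Mb. Chromosome Y had 0. Of the 1111 regions 116 (10.4%) lay within 50 kb of an epithelium-only region near a gene end, against 3.84% of mesothelium-only and 6.74% of crossed regions. In the same way 11.3% of mesothelium-only regions lay within 50 kb of a mesothelium-only region near a gene end. Within 50 kb of an epithelium-only distal region inside a gene lay 5.76% of the 1111 regions and 5.89% of crossed regions. Of the 1111 regions 51 (4.59%) lay within 50 kb of a mesothelium-only intergenic distal region. MicroRNA hairpins of the RefSeq table lay within 20 kb of 16 regions (1.44%), against 1.22% of mesothelium-only and 1.47% of crossed regions.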
